A study of Mus musculus with 2 samples.

Results

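The thrombospondin family of the mouse has 5 members, Thbs1, Thbs2, Thbs3, Thbs4 and Comp (cartilage oligomeric matrix protein), and their transcripts are described here across the cell types of limb muscle in 2 single-cell libraries, 1 of mice treated with Maraviroc (MVC) and 1 of vehicle-treated mice (DMSO). The members were selected on measured values, namely their molecule counts in these libraries by cell type and the share of those counts held by the cells with the most, so their levels are a description and were not tested. They are 5 of the 32285 genes counted, found by gene symbol. The mice were aged C57BL/6 animals, 18 months old at the start of treatment in the study's plan, and MVC is a small-molecule drug. The regime described beside this experiment was intraperitoneal MVC at 10 mg/kg every 2 days for 3 months, and DMSO mice had the vehicle alone. How many mice were pooled into a library is not given in the sources used here, and with 1 library per group a difference between mice and a difference between treatments cannot be told apart. No test between groups was possible, no p-value is given, and every interval below covers counting error only.

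Thrombospondins are large secreted glycoproteins that bind calcium, matrix proteins and cell surface receptors and are counted among the matricellular proteins, which sit in the matrix and signal to cells rather than bear load. Thbs1 and Thbs2 form trimers and carry the type 1 repeats that bind the receptor CD36, while their carboxyl ends bind CD47, and Thbs1 is known as an activator of latent TGF-beta. Thbs3, Thbs4 and Comp form pentamers and lack the type 1 repeats. Comp binds collagens and is abundant in cartilage and tendon, and Thbs4 is known from tendon and from the junction between muscle and tendon.

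On the mm10 (GRCm38) assembly, Thbs1 (ENSMUSG00000040152) spans chr2:118111876-118127133 on the plus strand and Thbs2 (ENSMUSG00000023885) spans chr17:14665500-14694235 on the minus strand. Thbs3 (ENSMUSG00000028047) lies at chr3:89215180-89226837 on the plus strand, Thbs4 (ENSMUSG00000021702) at chr13:92751590-92794818 on the minus strand and Comp (ENSMUSG00000031849) at chr8:70373558-70382066 on the plus strand. Thbs3 lies within the span of Mtx1 (chr3:89209081-89227088), which is annotated on the opposite strand and overlaps 7 Thbs3 exons, and the antisense RNA Gm29233 overlaps 3 exons of Thbs1. Of the 31-base words in the transcripts of each member, 10 of 6041 in Thbs1 (0.166%) also occurred in transcripts of other genes, and none did in Thbs2, Thbs3, Thbs4 or Comp.

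The promoter reference used here held an entry for 3 of the 5 members, Thbs2, Thbs3 and Thbs4. The 250 bases before their RefSeq starts are shown, from the GRCm38.p6 assembly and 5′ to 3′ on the strand of the gene. Capitals mark every match, on either strand, to 4 motifs: the AP-1 site TGANTCA, the TEAD site GGAATG, the scleraxis E-box CAGATG and the TATA box TATAAA. The windows are chr17:14694263-14694512, chr3:89214930-89215179 and chr13:92794819-92795068.
Thbs2: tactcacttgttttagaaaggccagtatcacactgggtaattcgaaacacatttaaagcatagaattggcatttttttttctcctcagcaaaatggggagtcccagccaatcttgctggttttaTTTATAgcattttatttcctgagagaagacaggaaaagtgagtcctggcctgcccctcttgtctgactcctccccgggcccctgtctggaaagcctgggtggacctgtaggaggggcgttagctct
Thbs3: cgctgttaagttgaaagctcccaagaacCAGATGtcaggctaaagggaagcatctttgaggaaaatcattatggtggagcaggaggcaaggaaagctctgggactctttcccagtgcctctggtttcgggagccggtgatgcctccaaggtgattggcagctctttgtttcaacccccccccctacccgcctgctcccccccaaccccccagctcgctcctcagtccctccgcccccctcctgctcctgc
Thbs4: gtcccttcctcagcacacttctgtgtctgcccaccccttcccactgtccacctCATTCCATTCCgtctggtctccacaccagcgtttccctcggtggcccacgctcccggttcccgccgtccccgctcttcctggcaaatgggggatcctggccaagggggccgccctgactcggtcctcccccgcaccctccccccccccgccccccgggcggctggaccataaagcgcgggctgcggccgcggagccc
The Thbs2 window held 1 TATA box match, 126 bases before the start, and 46.8% of its bases were G or C. In the Thbs3 window (58.8% G or C) the E-box letters occurred 1 time, 222 bases before the start. The Thbs4 window (70.8% G or C) held 2 TEAD matches, which overlap by 1 base, at 197 and 192 bases before the start. Over 32851 RefSeq windows of the same length, 12.4% held the TATA box, 14.4% the E-box, 12.6% the TEAD site and 6.75% the AP-1 site, and the median share of G and C was 52.4%, so no motif found here was rare. Windows for Thbs1 and Comp were not analysed here.

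The study's cell filter, which drops barcodes under 500 genes or over 10% mitochondrial UMIs, left 5454 of 6047 barcodes in the MVC library and 5437 of 5812 in the DMSO library. UMIs are unique molecular identifiers, each standing for 1 captured RNA molecule. Kept cells had a median of 5195 vs. 5802 UMIs, in the order MVC vs. DMSO used for all value pairs here, and 238 vs. 236 cells were called doublets, which are droplets holding more than 1 cell. The libraries shared 9 barcode sequences. Clustering without the 5 members gave 27 clusters, which fixed marker genes grouped into 14 cell type classes written "X-like", and the names were rebuilt here rather than taken from the authors. Clusters are named by their leading genes.

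All 5 members were detected, and each was concentrated in the connective tissue cells of the muscle, the fibro/adipogenic progenitor-like (FAP-like, 1439 vs. 1211) cells and tenocyte-like cells (533 vs. 466), but not to the same degree. Tenocyte-like cells, named from markers of tendon cells, held 91.3% of all Thbs4 UMIs and 87.0% of all Comp UMIs. They also held 56.2% of the Thbs2 UMIs, with most of the others in FAP-like cells. Thbs3 was mainly found in FAP-like cells, which held 76.2% of its UMIs. Thbs1 was the most widely spread member, with 43.5% of its UMIs in FAP-like cells, the largest share of any class, and it was the only member with more than 1 UMI in neutrophil-like cells of either library. The tenocyte-like cells had UMIs for 10 of 10 genes of their own marker list. These summed to 9177 vs. 8433 CPM, that is, UMIs per 1000000 UMIs of the class. The FAP-like cells likewise had UMIs for 10 of 10 genes of theirs (29847 vs. 33600 CPM). Because these lists gave the classes their names, the sums are a description and no separate support for the names. The FAP list was also high in tenocyte-like cells, at 16969 vs. 17153 CPM. Cartilage markers were low in tenocyte-like cells, at 10.9 vs. 65.8 CPM over 5 genes. Of the 10 leading genes of each tenocyte-like cluster, 5 were tenocyte markers in Angptl7/Fmod and 1 in Col22a1/Spp1. The Col22a1/Spp1 cluster also had 1 marker of another class among them.

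**Figure D1:**
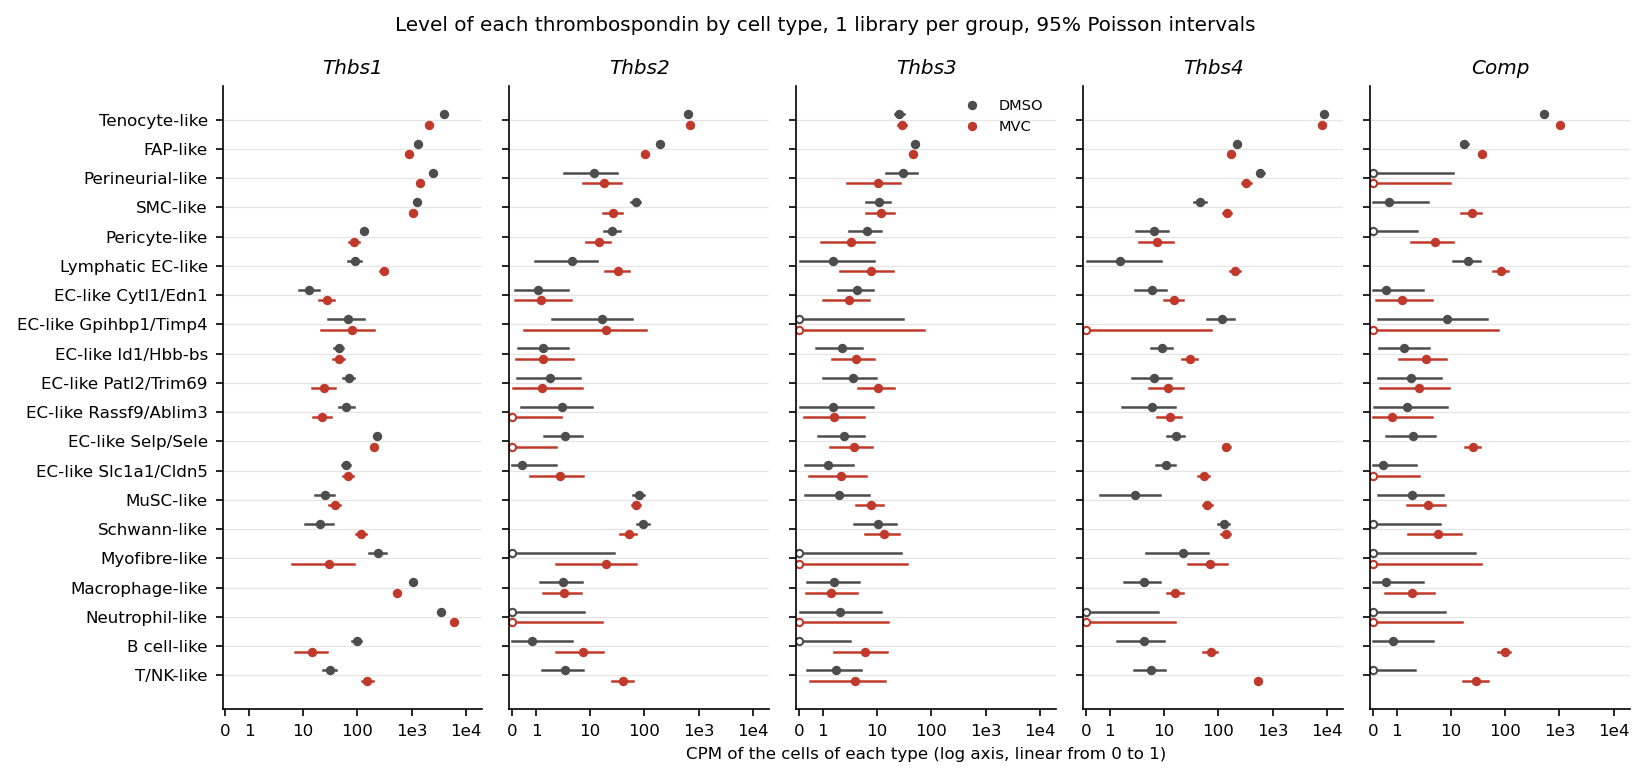
Level of each member (CPM, log axis that is linear from 0 to 1) in 13 classes and in each of the 7 endothelial (EC-like) clusters, for the DMSO (grey) and MVC (red) library, with lines for 95% Poisson intervals and open circles where no UMI was counted. Thbs4 stands at 8223 vs. 9008 CPM in tenocyte-like cells and at 0 in neutrophil-like cells, while Thbs1 reaches 5955 vs. 3412 CPM in neutrophil-like cells.

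Over all kept cells, Thbs1 was lower and Comp higher in the MVC library, and Thbs2, Thbs3 and Thbs4 were close in both. Thbs1 had 26530 vs. 41577 UMIs (747 vs. 1073 CPM), a ratio of 0.696 (95% interval 0.686 to 0.707). Comp had 5231 vs. 2394 UMIs (147 vs. 61.8 CPM), a ratio of 2.38 (2.27 to 2.50). Comp was thus the only member past a fold of 1.5 in either direction. Among all 16805 genes with at least 50 UMIs, 7.63% were higher by that fold and 5.56% lower. The ratio of Thbs2 was 0.9501 (0.914 to 0.988; 4781 vs. 5490 UMIs) and that of Thbs4 was 1.06 (1.05 to 1.08; 40029 vs. 41134 UMIs). Thbs3, the member with the fewest UMIs (835 vs. 842), had a ratio of 1.08 (0.982 to 1.19). These whole-library ratios also move with the share of each class: with the DMSO class shares applied to both libraries, Thbs4 came to 0.947 and Thbs3 to 0.971, on the other side of 1, Thbs2 to 0.835, Thbs1 to 0.668 and Comp to 2.13.

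Thbs1 was lower in MVC vs. DMSO in tenocyte-like and FAP-like cells and higher in neutrophil-like cells. In tenocyte-like cells its level was 2074 vs. 3910 CPM, a ratio of 0.531 (0.517 to 0.544). Both tenocyte-like clusters showed this, and in neither did the cells with the most Thbs1 decide it. The Col22a1/Spp1 cluster stood at 2048 vs. 3937 CPM (0.520, 0.502 to 0.539), with a median over cells of 1306 vs. 2883 CPM. In the Angptl7/Fmod cluster, which carries the tendon proteoglycan Fmod, the level was 2103 vs. 3878 CPM (0.542, 0.522 to 0.563) and the median over cells 1453 vs. 2514 CPM. The share of tenocyte-like cells with a Thbs1 UMI was 86.3% vs. 95.1%, and after thinning each cell to 2000 UMIs 76.0% vs. 86.8%. For comparison, 11.5% vs. 12.9% of the endothelial (EC-like) cells of the Slc1a1/Cldn5 cluster had a Thbs1 UMI, at medians of 2576 vs. 3419 UMIs per cell. The share was lower in muscle stem cell-like (MuSC-like) cells, at 7.78% vs. 6.25%, with medians of 6430 vs. 6758 UMIs per cell.

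The FAP-like clusters did not share a direction for Thbs1. Over all FAP-like cells the level was 893 vs. 1335 CPM, a ratio of 0.669 (0.653 to 0.684), just short of the 1.5-fold limit. Scaling by the median ratio over genes, which lies 0.13 above 0 on the log2 scale in FAP-like cells, brings it to 0.610. The Cxcl14/Smoc2 cluster (872.6 vs. 1475 CPM; 0.591, 0.571 to 0.613) and the Ifi205/Ptx3 cluster (1561 vs. 2207 CPM; 0.707, 0.684 to 0.731) were lower in MVC. The Sdk1/Dmkn cluster held less Thbs1 and was higher, at 423 vs. 249.5 CPM (1.70, 1.55 to 1.86), and 31.7% vs. 22.3% of its cells had a UMI. Without the 3 cells with the most Thbs1 in each library its ratio was 1.71. The small Pi16/Tmem100 cluster (138 vs. 103 CPM; 1.34, 1.02 to 1.77) rested on few cells, since 3 cells held 55.3% vs. 81.6% of its Thbs1 UMIs, and without them the ratio was 3.22 (1.85 to 5.95).

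**Figure D2:**
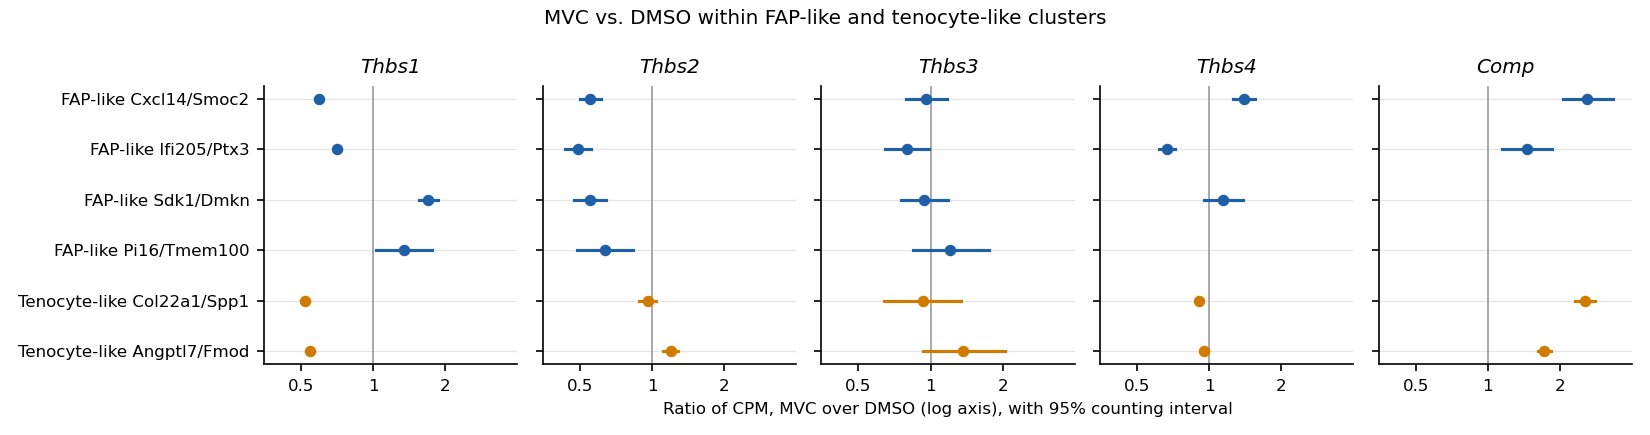
Ratio of CPM, MVC over DMSO (log axis), of each member in the 4 FAP-like (blue) and 2 tenocyte-like (orange) clusters, with 95% counting intervals and a line at 1, where points are drawn only with at least 50 UMIs in the cluster and 3 in each library. Thbs2 lies left of the line in every FAP-like cluster (0.490 to 0.636), Thbs1 lies on both sides among FAP-like clusters (0.591 to 1.70), and Comp lies right of it in both tenocyte-like clusters (1.72 and 2.55).

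Immune and vascular cells also carried Thbs1. Neutrophil-like cells, few in number (34 vs. 64), held 5955 vs. 3412 CPM, a ratio of 1.75 (1.62 to 1.88), and 97.1% vs. 92.2% of them had a UMI. This did not rest on a few cells: without the 3 cells with the most Thbs1 in each library the ratio was 1.79. Thbs1 was past the 1.5-fold limit upwards there, as were 12.3% of the 2150 genes with at least 50 UMIs in these cells, while 19.9% were past it downwards. Their dissociation response list (immediate early and heat shock genes, known to move during tissue digestion) had 0 genes higher and 6 lower of 17 with enough UMIs. The sum of their own 7 neutrophil markers was also higher (187346 vs. 134993 CPM), and the part of either in the Thbs1 result was not tested.

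In macrophage-like cells (210 vs. 152) Thbs1 was lower, at 539 vs. 1071 CPM (0.503, 0.468 to 0.542). It sat in a minority of them, as 19.0% vs. 26.3% had a UMI and 3 cells held 36.3% vs. 31% of the UMIs, and the ratio without those cells was 0.460. In this class 6.47% of 7431 genes were lower by 1.5-fold and 9.89% higher. Platelets store Thbs1, and the platelet marker list, which includes Pf4, a leading gene of this cluster, summed to 1045 vs. 1644 CPM in these cells, with 4 of 6 genes above 0 in either library, and their part in the result was not tested. Finer clustering (resolution 2) gave macrophage-like clusters led by F13a1 and Mrc1 (133 vs. 77 cells) and by Il1b and Tnip3 (78 vs. 76). The part of this mix in the Thbs1 ratio was not tested either. Smooth muscle-like (SMC-like) cells had 1072 vs. 1276 CPM (0.840, 0.779 to 0.906), with 77.2% vs. 70.2% of cells carrying a UMI. Their Acta2/Myh11 cluster was lower (889.9 vs. 1353 CPM; 0.658, 0.585 to 0.738), and the interval of their Olfr1033/Gm13889 cluster held 1 (1260 vs. 1219 CPM; 1.03, 0.934 to 1.14). Pericyte-like cells were low, at 86.3 vs. 131.5 CPM (0.656, 0.513 to 0.835), and 3 cells held 38.8% vs. 48.3% of the UMIs. Without them the ratio was 0.769 (0.554 to 1.06), an interval that holds 1. In the EC-like cluster led by Selp and Sele, adhesion molecules of activated endothelium, 35.2% vs. 35.1% of cells had a Thbs1 UMI, and 19.9% vs. 23.5% after thinning, where the Slc1a1/Cldn5 cluster had 8% vs. 9.76%. Its level was 202 vs. 225 CPM (0.897, 0.776 to 1.04), an interval that holds 1. In the DMSO library 1 cell held 31.1% of it, and without the top 3 cells the direction turned (1.21, 1.014 to 1.44).

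In T/NK-like and B cell-like cells the Thbs1 ratio came from a handful of cells, and in lymphatic EC-like and perineurial-like cells it stayed without them. T/NK-like cells stood at 152 vs. 30.5 CPM (4.97, 3.46 to 7.19), but 3 cells held 94.9% of the 78 MVC UMIs, and without the top 3 the ratio was 1.54 (0.352 to 5.33). In B cell-like cells (14.7 vs. 97.0 CPM, 0.151) 3 DMSO cells held 94.8% of 115 UMIs, and without the top 3 the ratio turned to 2.07 (0.595 to 7.45). Lymphatic EC-like cells had 302.5 vs. 88.5 CPM (3.42, 2.51 to 4.71), and without their top 3 cells the ratio was 3.20 (2.03 to 5.18). Few cells held most of it there too, with 54.8% vs. 52.6% of the UMIs in 3 cells and 86.0% vs. 84.2% in 10. Markers of stromal cells were also higher in that class, with the tenocyte list at 243 vs. 0 CPM (7 vs. 0 of 10 genes above 0) and the FAP list at 1135 vs. 335 CPM (10 vs. 7 of 10), and their part in the ratio was not tested. In perineurial-like cells, which form the sheath of nerve bundles (52 vs. 38 cells), Thbs1 stood at 1413 vs. 2487 CPM (0.568, 0.509 to 0.634), and 3 cells held 51.3% vs. 50.6% of it. Without these the ratio was 0.520 (0.444 to 0.609).

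Thbs2 was lower in the FAP-like cells of the MVC library and about level in its tenocyte-like cells, a difference between classes that was not tested. FAP-like cells had 103 vs. 191 CPM, a ratio of 0.542 (0.508 to 0.579), from 1411 vs. 2492 UMIs. All 4 FAP-like clusters were lower in the MVC library. The ratio was 0.553 (0.501 to 0.611) in the Cxcl14/Smoc2 cluster (112 vs. 202 CPM), 0.490 (0.432 to 0.555) in the Ifi205/Ptx3 cluster (103 vs. 210.1 CPM) and 0.553 (0.473 to 0.645) in the Sdk1/Dmkn cluster (87.7 vs. 159 CPM). The Pi16/Tmem100 cluster had the smallest difference, at 96.0 vs. 151 CPM (0.636, 0.486 to 0.831). No 3 cells held more than 4.25% of the FAP-like Thbs2 UMIs in either library. Among FAP-like cells, 39.4% vs. 54.1% had a Thbs2 UMI, and at 2000 UMIs per cell 17.3% vs. 25.9% did, against 0.853% vs. 0.160% in Slc1a1/Cldn5 EC-like cells without thinning.

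In tenocyte-like cells Thbs2 was level or slightly higher in MVC, at 701 vs. 639 CPM (1.10, 1.04 to 1.16), and 84.8% vs. 85.0% of cells had a UMI. The Angptl7/Fmod cluster accounted for that, with 872 vs. 728 CPM (1.197, 1.12 to 1.29). The Col22a1/Spp1 cluster stood at 542.5 vs. 566 CPM (0.959, 0.886 to 1.04), an interval that holds 1. Outside the stroma, Thbs2 was found in MuSC-like cells, the muscle stem cells, at 70.6 vs. 78.6 CPM (0.898, 0.675 to 1.2), and 29.2% vs. 27.8% of these cells had a UMI, spread over many cells. Schwann-like cells had 51.2 vs. 95.4 CPM (0.536, 0.341 to 0.833). SMC-like cells had 25.9 vs. 68.8 CPM, with 68.0% of the 103 DMSO UMIs in 3 cells. Neutrophil-like cells had 0 Thbs2 UMIs in 34 vs. 64 cells, which by the limit of 3 counts allows a share of up to 8.82% vs. 4.69% of cells with a UMI.

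Thbs3, a pentameric member, was a low and even transcript of FAP-like cells. It stood at 45.6 vs. 50.2 CPM in them (0.908, 0.812 to 1.015), and 29.9% vs. 33.9% of cells had a UMI. After thinning, 8.58% vs. 9.09% did. By cluster the level was 39.3 vs. 40.9 CPM in Cxcl14/Smoc2, 42.4 vs. 53.2 CPM in Ifi205/Ptx3, 52.5 vs. 55.8 CPM in Sdk1/Dmkn and 74.7 vs. 61.8 CPM in Pi16/Tmem100 cells. The clusters had this order in both libraries, and the 95% intervals of neighbours in it overlapped. Tenocyte-like cells had 28.8 vs. 25.8 CPM (1.12, 0.858 to 1.46). In the other classes Thbs3 was at 0 to 16 UMIs in each library except in EC-like cells, where the 7 clusters together held 30 vs. 26 UMIs. Because the library reads one end of each transcript and Mtx1 runs across Thbs3 on the other strand, its low counts also depend on the strand having been used in counting, which is not given in the sources used here.

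Thbs4 lay mainly in tenocyte-like cells in both libraries. It reached 8223 vs. 9008 CPM in tenocyte-like cells, close to 1% of all their UMIs, with a ratio of 0.913 (0.900 to 0.926). The share of tenocyte-like cells with a UMI was 98.5% vs. 98.7%. The Col22a1/Spp1 cluster (9341 vs. 10318 CPM; 0.905, 0.889 to 0.922) and the Angptl7/Fmod cluster (7013 vs. 7401 CPM; 0.948, 0.926 to 0.970) both held it throughout. No few cells held most of it, since the 3 with the most had 3.89% vs. 4.21%, but the level per cell ranged widely, from 1712 vs. 1510 CPM at the lowest decile to 18598 vs. 21036 CPM at the highest in Col22a1/Spp1 cells. Per UMI of Fmod, tenocyte-like cells had 1.54 vs. 2.08 Thbs4 UMIs, with Fmod at 5338 vs. 4323 CPM.

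Some FAP-like cells carried Thbs4 as well. In all, 15.4% vs. 14.5% of FAP-like cells had a UMI, the level was 174 vs. 219 CPM (0.794, 0.752 to 0.839), and 15 vs. 13 cells held 50% of the UMIs. The Ifi205/Ptx3 cluster held most per cell, at 311 vs. 467 CPM (0.666, 0.618 to 0.718), and 22.7% vs. 23.4% of its cells had a UMI, while 3.74% vs. 3.47% had an Fmod UMI. The Cxcl14/Smoc2 cluster went the other way (163 vs. 116 CPM; 1.40, 1.26 to 1.56), with 3 cells holding 35.7% vs. 49.2%. In the Sdk1/Dmkn cluster 229 vs. 233 UMIs were counted, but 3 cells held 54.1% vs. 87.1% of them, and without those cells the ratio moved from 1.15 to 4.09.

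Perineurial-like cells were the other class with Thbs4 in most cells. A Thbs4 UMI was found in 61.5% vs. 76.3% of them, against 5.76% vs. 4.15% of Slc1a1/Cldn5 EC-like cells, and 15.4% vs. 13.2% had an Fmod UMI. Their level was 330 vs. 593 CPM (0.556, 0.441 to 0.698), and 3 cells held 35.4% vs. 31.8%. Thbs1 and Thbs4 were both lower by 1.5-fold in these cells, as were 11.9% of the 2749 genes with enough UMIs, and 17.2% were higher. The dissociation response list was lower there in 20 of 22 genes (median log2 ratio −1.21 against 0.05 over all genes tested), for instance Egr1 at 1480 vs. 4135 CPM and Junb at 1353 vs. 3170 CPM. Its part in the values of both thrombospondins was not tested. Comp was at 0 UMIs in these cells in both libraries, and so was Tnmd in the DMSO library.

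Outside FAP-like, tenocyte-like and perineurial-like cells, Thbs4 was higher in the MVC library in several classes. Without the 3 cells with the most Thbs4 in each library it was still higher in macrophage-like cells (3.171, 1.135 to 10.93). The same held for the Id1/Hbb-bs (2.555, 1.296 to 5.213) and Cytl1/Edn1 (2.854, 1.204 to 7.492) EC-like clusters. These ratios rest on 18 vs. 5, 25 vs. 15 and 20 vs. 8 UMIs. The intervals of the Slc1a1/Cldn5, Rassf9/Ablim3 and Patl2/Trim69 EC-like clusters held 1, and the Gpihbp1/Timp4 cluster had 0 vs. 14 UMIs. In the classes named next, nearly all Thbs4 lay in a few cells. T/NK-like cells held 280 vs. 10 UMIs, and 1 MVC cell held 62.1% and 3 cells 98.2% of the 280. In the Selp/Sele EC-like cluster (226 vs. 33 UMIs) 1 MVC cell held 95.1%. MuSC-like cells had 115 vs. 3 UMIs, with 89.6% of the MVC UMIs in 3 cells, and lymphatic EC-like cells had 106 vs. 1, with 84.0% in 1 cell and 99.1% in 3. This was set beside the other genes of these cells. Of the genes with at least 50 UMIs in the MVC library, 3 cells held 50% or more of the UMIs for 10.6% in T/NK-like, 0.718% in Selp/Sele EC-like, 1.25% in MuSC-like and 3.61% in lymphatic EC-like cells. In SMC-like cells (148 vs. 69 UMIs) 3 cells held 96.6% vs. 91.3%, so the DMSO library showed the same, and in its Schwann-like cells 1 cell held 74 of 75 Thbs4 UMIs.

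**Figure D3:**
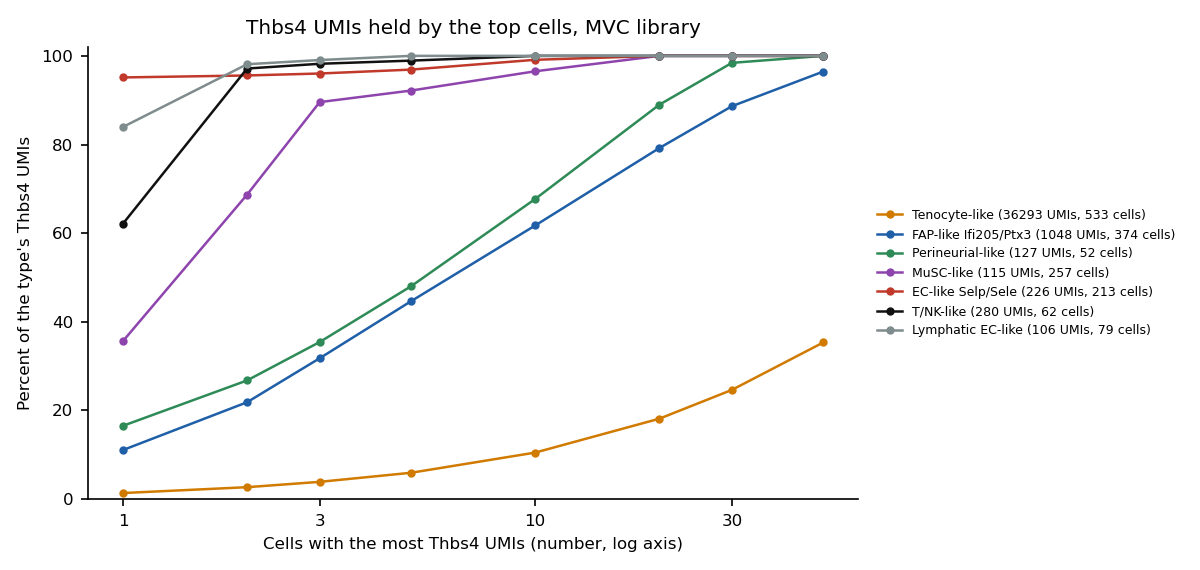
Cumulative percent of the Thbs4 UMIs of a cell type (y axis) held by its cells with the most Thbs4 UMIs (x axis, number of cells, log axis) in the MVC library, with 1 line per cell type. In tenocyte-like cells 3 cells hold 3.89%, in perineurial-like cells 35.4%, and in T/NK-like, Selp/Sele EC-like, MuSC-like and lymphatic EC-like cells 89.6% to 99.1%.

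These few cells also carried tendon transcripts. Counting all cells outside the FAP-like, tenocyte-like and perineurial-like classes (3430 vs. 3722), 16 vs. 4 cells had at least 10 Thbs4 UMIs and held 81.8% vs. 55.0% of the 1238 vs. 300 UMIs. Cells with exactly 1 Thbs4 UMI were also more frequent in the MVC library, at 164 vs. 112. Fmod was detected in 15 of the 16 MVC cells and 3 of the 4 DMSO cells. Of these cells, 10 of 16 and 2 of 4 were called doublets, against 4.43% vs. 4.89% of all cells outside those classes. The MVC T/NK-like cell with the most Thbs4 had 174 Thbs4, 117 Fmod and 7 Tnmd UMIs. Tenocyte markers summed to 498 vs. 8.64 CPM in T/NK-like cells (9 of 10 vs. 3 of 10 genes above 0) and to 39.4 vs. 5.92 CPM in Selp/Sele EC-like cells (9 of 10 vs. 3 of 10). Neutrophil-like cells had 0 Thbs4 UMIs in either library.

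Comp, the cartilage and tendon pentamer, was higher in the MVC library in both tenocyte-like clusters. In tenocyte-like cells it stood at 1021 vs. 508 CPM (2.01, 1.91 to 2.12), from 4505 vs. 2132 UMIs, and 67.7% vs. 54.5% of cells had a UMI (difference 13.2 points, 7.17 to 19.2). After thinning to 2000 UMIs, 56.1% vs. 35.98% did. Both the number of cells with Comp and the level per cell were higher. In the Col22a1/Spp1 cluster 49.3% vs. 35.04% of cells had a UMI and the level was 697 vs. 273.5 CPM (2.55, 2.32 to 2.80). In the Angptl7/Fmod cluster 89.4% vs. 77.8% of cells had a UMI, the level was 1371 vs. 797 CPM (1.72, 1.62 to 1.83) and the median over cells was 1131 vs. 492 CPM. Tnmd (tenomodulin, a tendon membrane glycoprotein) was also higher, at 634.5 vs. 214 CPM in the Col22a1/Spp1 cluster and 712.5 vs. 317 CPM in the Angptl7/Fmod cluster.

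**Figure D4:**
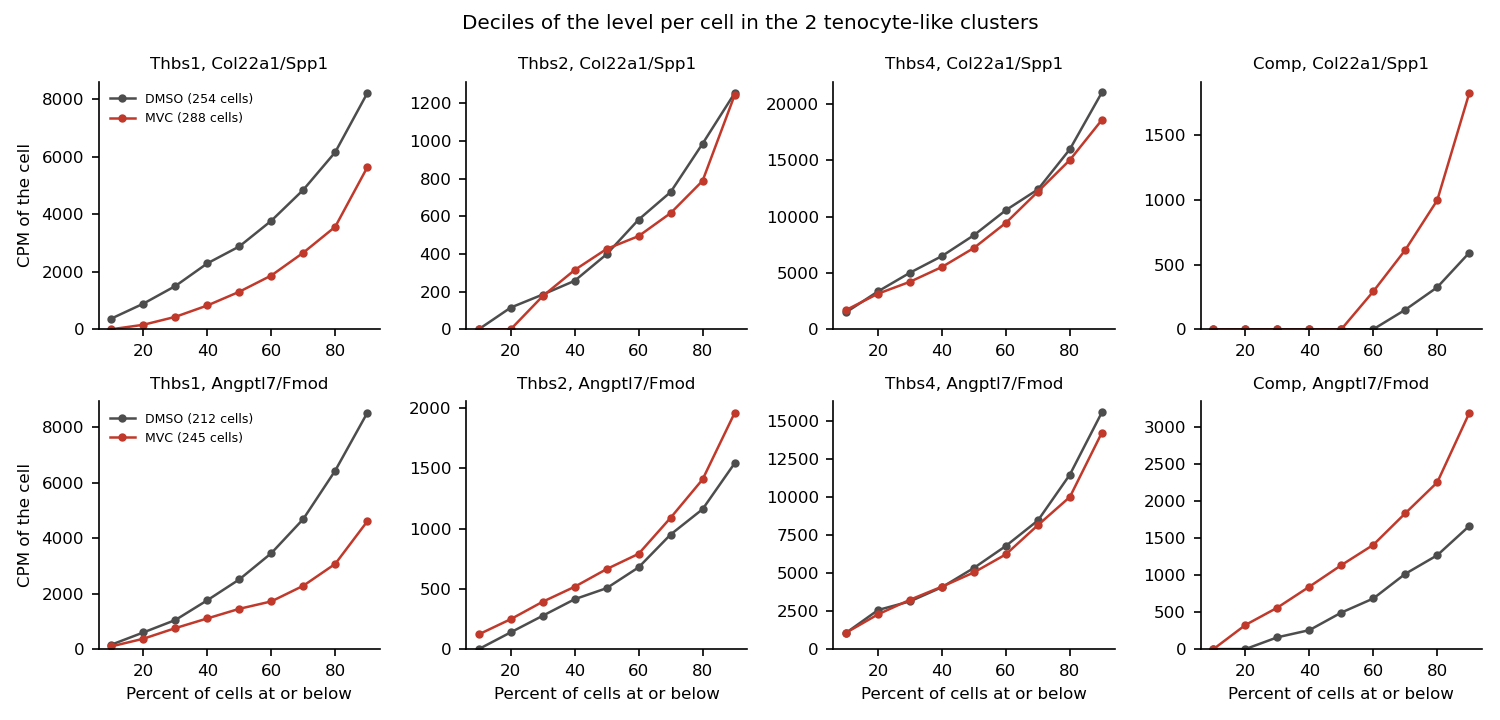
Deciles of the level per cell (CPM of the cell, y axis) of Thbs1, Thbs2, Thbs4 and Comp in the Col22a1/Spp1 (top) and Angptl7/Fmod (bottom) tenocyte-like clusters, with the percent of cells at or below a value on the x axis, for the DMSO (grey) and MVC (red) library. The Thbs1 line of the MVC library runs below the DMSO line and the Comp line above it over the cells with UMIs, while the Thbs4 lines run close together.

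Beyond tenocyte-like cells, Comp was sparse. FAP-like cells had 37.1 vs. 17.7 CPM (2.10, 1.79 to 2.46), but 3 MVC cells held 39.9% of it, and without the top 3 cells the ratio was 1.54 (1.28 to 1.86). By cluster, the ratio without the top 3 cells was 1.32 (0.976 to 1.81) in Cxcl14/Smoc2 and 1.29 (0.953 to 1.74) in Ifi205/Ptx3 cells. Both intervals held 1. The Sdk1/Dmkn and Pi16/Tmem100 clusters had only 24 vs. 6 and 5 vs. 1 Comp UMIs. In the Selp/Sele EC-like cluster 41 vs. 4 UMIs were counted (25.6 vs. 1.97 CPM; 13.0, 4.70 to 49.9), in 11.7% vs. 1.61% of cells and with only 26.8% of the MVC UMIs in 3 cells. That places it apart from Thbs4, whose UMIs in this cluster sat almost wholly in 1 cell. At 2000 UMIs per cell the shares were 3.23% vs. 0%, near the level of 1 UMI. Lymphatic EC-like cells had 82.8 vs. 20.2 CPM (4.10, 2.17 to 8.32) in 13.9% vs. 13.3% of cells, and the ratio was 1.65 without the top 3. B cell-like cells held 66 vs. 1 UMIs, with 98.5% of the 66 in 3 cells. The Slc1a1/Cldn5 EC-like cluster had 0 Comp UMIs in the MVC library and 1 in the DMSO library.

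The calls at 1.5-fold are set here beside the share of all genes past the fold in each class. In FAP-like cells Thbs2 was lower and Comp higher, where 3.29% of 12780 genes were lower and 11.5% higher. The Comp call there leaned on few cells, with a ratio of 1.54 (1.28 to 1.86) without the top 3 cells of each library. In tenocyte-like cells Thbs1 was lower and Comp higher, where 5.34% of 9690 genes were lower and 9.26% higher. The other 3 members in each class lay within the fold.

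Across the 14 classes in both libraries (28 points, which share libraries and depth), the level on the log2(CPM + 10) scale of Thbs4 ran most like that of Itgbl1, Fbln1 and Fmod among 13090 genes, with Pearson correlations of 0.912, 0.908 and 0.905. Comp ran most like Tnmd, Mfap4 and Chad (0.882, 0.878 and 0.873), of which Tnmd and Chad are tendon and cartilage genes. Fmod, Tnmd and Chad are tenocyte markers used to name the classes, so these matches are not independent of the names. Thbs2 followed Lox, the enzyme that crosslinks collagen, and Srpx2 and Igsf10 (0.905, 0.894 and 0.888). Thbs3 followed Gsn, Pamr1 and Myoc (0.923, 0.916 and 0.911), with Gsn a FAP marker used to name the classes. The best matches of Thbs1 were lower (Cstb 0.770, Gm13986 0.765, S100a6 0.763). Among the members themselves, Thbs2 with Thbs4 (0.771), Thbs4 with Comp (0.755), Thbs2 with Thbs3 (0.741) and Thbs3 with Thbs4 (0.728) were correlated over classes, and Thbs1 had correlations of 0.208 to 0.436 with the others. In sparse counts these are a description only.

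Within FAP-like cells thinned to 2000 UMIs, cells with Thbs1 more often had Thbs4 than cells without it, 11.6% against 6.38% in the MVC library and 13.2% against 4.69% in the DMSO library. Cells with Thbs4 likewise more often had Comp, 10.2% against 3.23% in MVC and 7.29% against 1.96% in DMSO. For Thbs1 and Thbs2 the libraries differed in sign: cells with Thbs1 had Thbs2 in 15.4% against 18.3% of cells in MVC and in 27.1% against 25.04% in DMSO. Cells of 1 library are not replicates, and these shares were not tested.

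The list of receptors and binding partners of the family at the cell surface holds 15 genes. In tenocyte-like cells 3 of 12 genes with enough UMIs were higher and 0 lower (median log2 ratio 0.12 against 0.03 over all genes), where 9.26% of all genes were higher and 5.34% lower. Itgb1 (627 vs. 555 CPM), Sdc4 (585 vs. 530 CPM), Lrp1 (550 vs. 496.5 CPM) and Cacna2d1 (494 vs. 514 CPM), an integrin chain, a syndecan, a scavenger receptor and a calcium channel subunit, had the most UMIs and lay within it. The 3 higher genes, named after their values were seen, were Itga6 (1.84), Nlgn1 (1.64) and Calr (1.52). In FAP-like cells 1 of 13 was higher and 2 lower (median 0.06 against 0.07), and Lrp1 (650 vs. 674 CPM), Cd47 (455 vs. 410 CPM), Itgb1 (399 vs. 344.5 CPM) and Calr (305 vs. 264 CPM) had the most UMIs.

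Genes of latent TGF-beta activation, the step in which Thbs1 is known to act, were nearly level in FAP-like and tenocyte-like cells. In FAP-like cells 0 of 11 were past the fold in either direction (median −0.04), with Ltbp1 at 493 vs. 498 CPM. In tenocyte-like cells 0 were higher and 1 of 11 lower (median −0.02). The lower gene was Tgfb3 (51.4 vs. 83.0 CPM), named after its value was seen. In macrophage-like cells 4 of 6 genes were higher and 0 lower, against 9.89% and 6.47% of all genes there (median 0.61 against 0.03). Among the higher was Tgfbr2 (188 vs. 112 CPM), while Tgfb1 was at 172 vs. 178 CPM.

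Other matricellular genes and genes of the tendon and cartilage matrix moved in both directions in tenocyte-like cells. Of 12 matricellular genes, 4 were higher and 2 lower there (median 0.23), read against the same 9.26% and 5.34% of all genes. Sparc, a collagen chaperone, stood at 1272 vs. 686 CPM, Tnc at 977 vs. 810 CPM, Ccn1 at 763 vs. 719 CPM, and Ccn2, a growth factor that responds to load and to TGF-beta, at 796 vs. 1340 CPM. Of 11 matrix genes, 4 were higher and 2 lower (median 0.26), with Col1a2 at 1469 vs. 709 CPM, Fmod at 5338 vs. 4323 CPM, Dcn at 13079 vs. 13156 CPM and Col12a1 at 1099 vs. 1090 CPM. The lower matrix genes, named after their values were seen, were the cartilage genes Col2a1 (6.12 vs. 42.0 CPM) and Acan (0.906 vs. 15.7 CPM), which moved opposite to Comp. In FAP-like cells 1 of 12 matricellular genes was higher and 2 lower (median 0.09), and 1 of 9 matrix genes was higher and 0 lower (median 0.36), where 11.5% of all genes were higher and 3.29% lower.

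The YAP and SRF target list, genes known to respond to mechanical tension, had 1 of 7 higher and 2 lower in tenocyte-like cells (median −0.27) and 0 higher and 1 of 7 lower in FAP-like cells (median 0.12). Besides Ccn1 and Ccn2, Axl stood at 257 vs. 260.4 CPM and Crim1 at 179 vs. 230.1 CPM in tenocyte-like cells. The dissociation response list had 2 of 22 higher and 0 lower in tenocyte-like cells (median 0.23) and 0 higher and 3 of 22 lower in FAP-like cells (median 0.01). Its values by FAP-like cluster stand here beside those of Thbs1. In Cxcl14/Smoc2 cells, where Thbs1 was lower, 0 of 22 were higher and 5 lower (median −0.43), against 12% and 4.03% of all genes. In Sdk1/Dmkn cells, where Thbs1 was higher, 5 were higher and 0 lower (median 0.34), against 7.62% and 4.9%. In Ifi205/Ptx3 cells, with Thbs1 lower, 1 was higher and 1 lower, against 7.55% and 4.01%. In Pi16/Tmem100 cells, with Thbs1 at a ratio of 1.34, 1 was higher and 7 lower (median −0.29), against 13.9% and 7.48%. In the tenocyte-like clusters, where Thbs1 was lower, the list median was 0.10 (Col22a1/Spp1) and 0.28 (Angptl7/Fmod). Its part in the Thbs1 values was not tested.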

How the data were processed

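Live mononuclear cells of limb muscle were profiled by droplet single-cell RNA-seq (10x Genomics) after red cell lysis and a viability sort, with 1 library per treatment. The deposited values were raw UMI counts for each gene and barcode, with no normalisation. The submitters' processing notes name Cell Ranger 7.0.0, Seurat 5.0.1 and mm10, and the use of strand and introns in counting is not given in the sources used here. The libraries held 36063575 (MVC) and 39150511 (DMSO) UMIs, of which kept cells held 35518029 and 38748234. No column of other samples was present (0).

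Groups were taken from the treatment label. As in the study, barcodes under 500 genes or over 10% mitochondrial UMIs were dropped, which removed 9.81% and 6.45% of barcodes. Counts were scaled to 10000 UMIs, log-transformed, and clustered on 2000 variable genes, of which 3 members would have been part but all were left out, with 30 principal components, 20 neighbours and Leiden resolution 1 (scanpy 1.11.5, leidenalg 0.10.2, Python 3.11.15) on both libraries together. This replaced the SCTransform normalisation of the study. A cluster was named when at least 3 of its class's markers were raised by a log2 fold of 1 in at least 20% of cells, ahead of the next class by 0.5. EC-like clusters were compared one by one, because 2 of the 7 had more markers of another class, haemoglobin genes, than of their own among their leading genes. Doublets were scored against simulated ones, called at 0.8% per 1000 cells and kept in the reported values. Free RNA was not corrected for.

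CPM is UMIs per 1000000 UMIs of the class and library, with exact 95% Poisson intervals. Ratios carry exact conditional, shares Clopper-Pearson and share differences Newcombe intervals. PCR copies are collapsed by UMI, and all intervals cover counting error only. "Past the fold" means at least 1.5-fold among genes with at least 50 UMIs. List medians used a pseudocount of 10 CPM, and a floor of 3 counts stood for 0. The code was tested on simulated data. The members, lists, markers and comparisons were chosen with earlier results of these data known. Named genes are the 5 members, up to 4 genes per list with the most UMIs in the class described, and for likeness the 3 genes with at least 200 UMIs and the highest correlation. Of 32285 gene IDs, 32235 were found in the GRCm38 annotation. Alternatives were doublet removal, a stricter and no cell filter, mean CPM per cell, removal of top cells, median-ratio scaling, DMSO class shares, other clusterings, other filters and folds, and thinning. Items withheld from the text are not reported here.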

Additional observations from a re-analysis of the deposited data

Results flagged for a closer look

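In classes with at least 30 cells and 50 UMIs of the member in each library, ratios of a member, MVC over DMSO, lay on opposite sides of 1 with counting intervals that did not hold 1. These differences between cell types were not tested. Thbs1 was above 1 in lymphatic EC-like (3.42), neutrophil-like (1.75) and T/NK-like (4.97) cells. In T/NK-like cells 3 cells held 94.9% of the MVC UMIs, and without the top 3 cells of each library the ratio was 1.54 (0.352 to 5.33). It was below 1 in FAP-like (0.669), macrophage-like (0.503), pericyte-like (0.656), perineurial-like (0.568), SMC-like (0.840) and tenocyte-like (0.531) cells. Without the top 3 cells the pericyte-like interval held 1 (0.769, 0.554 to 1.06), and of the SMC-like clusters Acta2/Myh11 stood at 0.658 and Olfr1033/Gm13889 at 1.03. In lymphatic EC-like cells the tenocyte markers summed to 243 vs. 0 CPM and the FAP markers to 1135 vs. 335 CPM, and their part was not tested. Thbs2 was at 1.10 in tenocyte-like and 0.542 in FAP-like cells. Thbs4 was at 3.19 in SMC-like cells, where 3 cells held 96.6% of the MVC UMIs and the ratio without the top 3 was 1.25 (0.303 to 4.93), against 0.794 in FAP-like, 0.556 in perineurial-like and 0.913 in tenocyte-like cells.

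Barcodes that the cell filter removed, which enter no comparison, also carried the family. Thbs1 had 135 UMIs there in the MVC library and 107 in the DMSO library (248 vs. 266 CPM), and Thbs4 had 202 and 66 (370.3 vs. 164 CPM).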

How the results depend on the processing

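Over the alternatives run for all cells, FAP-like and tenocyte-like cells, 90 values stayed within the counting interval of the reported value and 33 moved out of it. No ratio past 1.5-fold changed sign there, but 2 of the smaller ones did. Over all cells, Thbs3 went from 0.11 to −0.042 and Thbs4 from 0.086 to −0.079 on the log2 scale when the DMSO class shares were applied to both libraries. That setting also gave −0.58 for Thbs1, −0.26 for Thbs2 and 1.09 for Comp. On the same scale, Thbs1 over all cells was at −0.52 as reported, −0.50 without doublets, −0.44 as the mean of each cell's CPM and −0.58 with median-ratio scaling. That scaling also gave −0.13 for Thbs2 and 0.027 for Thbs4 over all cells, −0.71 for Thbs1 and −1.01 for Thbs2 in FAP-like cells, and −0.96 for Thbs1 and −0.17 for Thbs4 in tenocyte-like cells. Mean CPM per cell gave 0.30 for Thbs3 over all cells, and −0.85 for Thbs1 and 1.15 for Comp in tenocyte-like cells. With members among the variable genes, FAP-like values were −0.51 for Thbs1 and −0.78 for Thbs2, and the tenocyte-like Thbs1 value was −0.97, as at resolution 2. FAP-like cells held 44.3% of Thbs1 without doublets and 44.0% under the stricter filter. Tenocyte-like cells held 93.0% of Thbs4 and 88.6% of Comp without doublets. At resolution 2 they held 50.6% of Thbs2, 90.4% of Thbs4 and 85.0% of Comp, and with members among the variable genes 50.6%, 90.4% and 85.1%. Thinning moved the share difference of Thbs2 in FAP-like cells from −14.7 to −8.59 points and of Comp in tenocyte-like cells from 13.2 to 20.2. The causes were not tested. Among list values 50 stayed and 10 moved.

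No paired analysis was possible because each group had 1 library. Small classes, such as neutrophil-like (34 vs. 64 cells) and perineurial-like (52 vs. 38 cells), and Thbs3 (835 vs. 842 UMIs) were limited by the number of cells or UMIs.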
